A study of Mus musculus with 6 samples.

Results

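The genes that make cholesterol and fatty acids under the control of the SREBP transcription factors were followed in large peritoneal macrophages of infected mice. The set was chosen by name: 33 genes were listed, 32 were found among the 20336 genes of the deposited table, and 1 is not analysed here. Of the 32, 17 encode enzymes of the sterol arm, 6 encode regulators and a sterol carrier, and 9 encode enzymes of the fatty acid arm. These macrophages, which reside in the abdominal cavity of healthy mice and take up bacteria, were sorted by surface staining 30 min after intraperitoneal injection of E. coli, and their polyA RNA was sequenced. Floxed control mice (genotype label PAC F/F) gave 3 libraries. Mice with a conditional deletion of PAC, the proton-activated chloride channel, gave 3 libraries; their genotype is labelled Cxcr3-PAC-/-, but as Cx3cr1-PAC-/- in the design text. All 6 libraries came from infected mice, and cells of mice given PBS were not analysed here. Strain, age and sex are not given in the labels, nor whether the floxed controls carried a driver allele or each library came from a separate mouse. A driver effect and a channel effect therefore cannot be told apart, and every p-value rests on variation among libraries that could be technical.

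Cholesterol synthesis starts from acetyl-CoA, runs through mevalonate and the isoprenoids to squalene, and ends with the conversion of lanosterol to cholesterol. Fatty acid synthesis draws on the same acetyl-CoA, which is elongated, desaturated and built into membranes and stored lipid. SREBP precursors sit in the endoplasmic reticulum with their escort Scap; when sterols are plentiful, Insig proteins hold the complex there, and when sterols are scarce it moves to the Golgi, where proteases release the active factor. In macrophages sterol synthesis is balanced by the liver X receptors (LXR), which oxysterols activate and which raise cholesterol export and, through Srebf1, fatty acid synthesis.

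Library totals ranged from 15981530 to 20648832 counts. Levels of a gene across libraries are given as CPM, its counts relative to the library total, scaled by TMM. The deleted gene, listed under its older name Tmem206, had 6.33, 12.2 and 8.16 CPM in the floxed controls and 4.27, 6.13 and 5.49 CPM in the knockouts; the groups did not overlap, and edgeR gave a log2 fold change of -0.75 (SE 0.31, adjusted p = 0.997). The counts cover the whole gene and do not measure the deleted part alone. Defining genes of the sorted cell were present throughout, with Gata6 at 59.4 to 94.8 CPM and Adgre1 at 1792 to 2687 CPM. Of 14 markers of this cell, 9 had higher and 5 lower values in the knockout, with log2 fold changes from -0.53 to 0.53. Their summed CPM was 20997 to 26749 in the controls and 24064 to 26022 in the knockouts. Summed CPM of 14 B cell markers differed widely, from 85.3 to 589 in the floxed controls and from 113 to 379 in the knockouts. The 10 T and NK cell markers summed to at most 10.7 CPM, and 6 of them, Cd3e included, had 0 counts in at least 1 library. All 4 tested had higher values in the knockout, as had all 6 mast cell and 2 neutrophil markers tested, against 48.8% of all genes. Their median log2 fold changes were 0.96, 1.68 and 0.55. Of 14 B cell markers, 12 had lower values in edgeR (median log2 fold change -0.33), with control 2 alone at a summed 589 CPM. Their mean log2 CPM, centred per gene, was instead 0.21 higher in the knockout. In edgeR, 2 mast cell markers and 1 neutrophil marker had an unadjusted p under 0.05, and 0 passed. Mast cell markers summed to 56.8 to 147 CPM in controls and 140 to 252 CPM in knockouts. The mean log2 CPM of the 6 tested, centred per gene, was -0.91, -0.67 and -0.17 in controls 1, 2 and 3. It was 2.14, 0.78 and -1.17 in knockouts 1, 2 and 3, so knockout 3 lay below all controls. Counts of 0 in at least 1 library occurred for 6 of 9 mast cell and 6 of 8 neutrophil markers. The part of these cells was not tested. Of 13 markers of the small peritoneal macrophage, the recruited counterpart of the sorted cell, 11 had lower values in the knockout (median log2 fold change -1.08). In edgeR 0 passed and 7 had an unadjusted p under 0.05, against 4.18% of all genes. The groups did not overlap for 5 of the 13, against 9.33% of all genes. The 13 markers summed to 3782 to 4752 CPM in the controls and 2181 to 5680 CPM in the knockouts, with none at 0. Their mean log2 CPM, centred per gene, did not overlap, at 0.45, 0.66 and 0.24 in the controls and -0.20, -1.12 and -0.04 in the knockouts. The part of such cells in the values below was not tested.

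No member of either arm passed the test between knockout and floxed control. In edgeR's quasi-likelihood test over 12786 genes, 0 of the 31 members with enough counts reached an adjusted p under 0.05 (all 0.997 or higher), against a background of 0.0% of all genes tested. At an unadjusted p under 0.05 there was 1 member, higher in the knockout, against 4.18% of all genes, 2.09% in each direction. The groups did not overlap for 2 members, against 9.33% of all genes. Among the 31, 12 had a higher and 19 a lower mean in the knockout, where 48.8% of all genes were higher; the median log2 fold change was -0.03, next to -0.01 over all genes. Differences ran from -0.47 for Acat2 to 0.61 for Nsdhl. The 95% interval lay within a 2-fold change in either direction for 20 members, against 65.2% of all genes, so for these a larger difference falls outside the interval. In bulk RNA of sorted cells, fewer cells of a type and less RNA per cell cannot be told apart. In the authors' deposited table, 0 of the 32 members had an adjusted p under 0.05, and the smallest was 0.999.

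**Figure D1:**
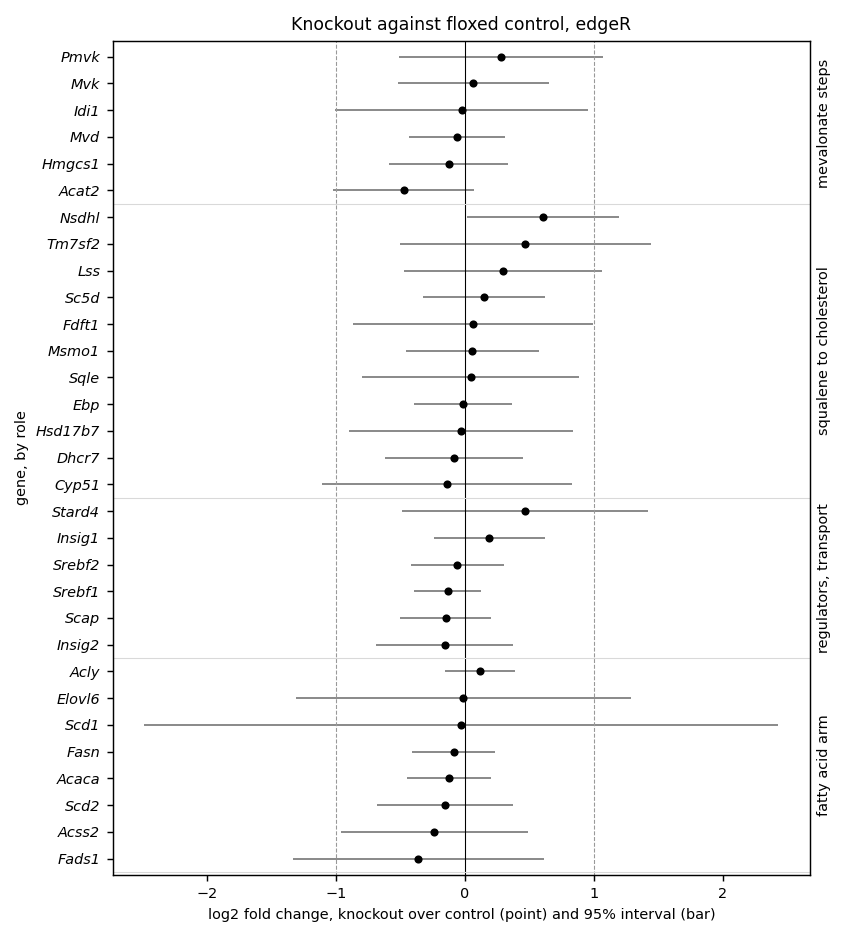
Log2 fold change of each of the 31 tested members (x axis, knockout over floxed control; points are edgeR estimates, bars are 95% intervals, dashed lines mark a 2-fold change), grouped by role on the y axis. All intervals but that of Nsdhl cross 0, and that of Scd1, from -2.48 to 2.43, is the widest.

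Of the 6 enzymes of the mevalonate stretch, 2 had higher and 4 lower values in the knockout, and none passed. Acat2, the cytosolic thiolase that joins acetyl units at the start of the route (chromosome 17, 12942890 to 12960747, minus strand, GRCm38), had 14.7, 12.5 and 16.2 CPM in the floxed controls and 10.9, 13.0 and 7.43 CPM in the knockouts. The ranges overlapped, with knockout 2 above control 2. Its log2 fold change was -0.47 (SE 0.25, unadjusted p = 0.083, edgeR adjusted p = 0.997). Hmgcs1, the HMG-CoA synthase (chromosome 13, 119690379 to 119708260, plus strand), had 18.6, 22.8 and 25.6 CPM in the control and 25.5, 16.1 and 19.9 CPM in the knockout. Highest and lowest values thus lay in different genotypes, and the difference was -0.13 (SE 0.21). Pmvk, the phosphomevalonate kinase, had 3.07 to 6.16 CPM in the control and 4.10 to 6.32 CPM in the knockout, a log2 fold change of 0.28 (SE 0.36). Mevalonate kinase, Mvk, at 5.58 to 7.60 CPM, and the decarboxylase Mvd, at 20.1 to 26.7 CPM, were the steadiest of the 6, with differences of 0.07 (SE 0.27) and -0.06 (SE 0.17). Idi1, the isomerase that makes the reactive isoprene unit, ranged more widely, with 4.58, 4.93 and 10.5 CPM in the control and 8.01, 3.10 and 8.53 CPM in the knockout. Within each genotype its libraries differed by more than the group means did (-0.02, SE 0.44).

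Of the 11 enzymes from squalene to cholesterol, 7 had higher and 4 lower values in the knockout, and none passed. Nsdhl, a dehydrogenase that helps strip methyl groups from the lanosterol skeleton (chromosome X, 72918557 to 72958514, plus strand), had 6.07, 7.94 and 5.53 CPM in the control and 9.31, 8.35 and 12.1 CPM in the knockout. The 3 knockout libraries all lay above the 3 control libraries. Its log2 fold change of 0.61 (SE 0.27, 95% interval 0.02 to 1.19) was the only one among the members with an unadjusted p under 0.05 (0.044); the edgeR adjusted p was 0.997. Msmo1 and Hsd17b7, which act with Nsdhl in the same demethylation, did not share the pattern. Msmo1 had 12.7, 11.6 and 19.6 CPM in the control and 16.7, 13.97 and 15.1 CPM in the knockout (0.06, SE 0.23), and Hsd17b7 had 2.84 to 4.79 and 2.59 to 4.03 CPM (-0.03, SE 0.39). Tm7sf2, a sterol reductase, was near the lower end of the set, with 2.93, 1.62 and 1.84 CPM in the control and 3.20, 2.91 and 2.77 CPM in the knockout (0.47, SE 0.44). Lss, which closes squalene epoxide into lanosterol, had 9.47, 3.48 and 7.42 CPM in the control and 8.84, 7.46 and 8.76 CPM in the knockout (0.30, SE 0.35); its low value lay in control 2 alone. Sc5d, a sterol desaturase, stood at 11.9 to 16.5 and 13.9 to 18.9 CPM (0.15, SE 0.21).

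The remaining enzymes of this stretch differed by less than 0.2 log2 units between the genotypes. Squalene synthase, Fdft1, had 5.87, 3.94 and 6.11 CPM in the control and 8.66, 2.59 and 5.38 CPM in the knockout (0.06, SE 0.42). Of its exon bases, 18.3% overlap the opposite-strand cathepsin gene Ctsb in GENCODE M21, and the counting strand is not given, so reads of the pair cannot be told apart. The same holds for smaller shares of Scap (13.2%) and Hmgcs1 (12.1%), which overlap opposite-strand transcripts. For Tm7sf2, 12.1% of the exon bases overlap Vps51 on the same strand, which no strand setting separates. All these shares follow GENCODE M21, where 27 of 32 members had the same start and end as in the deposited table. Tm7sf2 had 4403 exon bases there but a deposited length of 5593, so its share in the counted gene may differ. Squalene epoxidase, Sqle, had 3.81 to 5.53 and 3.41 to 7.48 CPM (0.04, SE 0.38). Cyp51, the lanosterol demethylase (chromosome 5, 4081145 to 4104746, minus strand), had 7.31, 10.8 and 16.2 CPM in the control and 12.4, 4.55 and 14.3 CPM in the knockout, a 3.56-fold span over the 6 libraries with group means only -0.14 (SE 0.43) apart. The isomerase Ebp, at 31.3 to 48.6 and 36.3 to 39.8 CPM, and the last-step reductase Dhcr7, at 10.2 to 14.8 and 9.10 to 12.9 CPM, differed by -0.01 (SE 0.17) and -0.08 (SE 0.24).

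Srebf1, Srebf2, Scap and the Insig genes differed by less than 0.2 log2 units between the genotypes; Stard4 varied more. Srebf1 (chromosome 11, 60199089 to 60222581, minus strand), whose forms act mainly on fatty acid genes, had 62.2, 66.4 and 63.6 CPM in the control and 61.3, 56.3 and 57.6 CPM in the knockout. The groups did not overlap, yet the log2 fold change was -0.13 (SE 0.12, unadjusted p = 0.283 in edgeR), and its spread over the 6 libraries was among the smallest of the set. Srebf2, which acts mainly on sterol genes, had 116, 109 and 131 CPM in the control and 135, 88.1 and 119 CPM in the knockout (-0.06, SE 0.16). The escort Scap stood at 31.9 to 45.5 and 31.0 to 36.6 CPM (-0.15, SE 0.16). Insig1, itself a sterol-responsive SREBP target (chromosome 5, 28071363 to 28078662, plus strand), had 123, 116 and 161 CPM in the control and 193, 116 and 147 CPM in the knockout (0.19, SE 0.19). Insig2, its paralog, was lower, at 15.95 to 17.9 and 10.1 to 19.5 CPM (-0.16, SE 0.24). Stard4, which carries sterols between membranes (chromosome 18, 33199355 to 33213862, minus strand), had 8.13, 11.4 and 23.5 CPM in the control and 24.0, 12.3 and 23.1 CPM in the knockout. Each genotype held both low and high libraries, and the log2 fold change of 0.47 (SE 0.41, unadjusted p = 0.291 in edgeR) had an interval from -0.48 to 1.42. Its value was 0.18 without control 1 and 1.02 without control 3.

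In the fatty acid arm, Acly and Acaca stood far above the other enzymes in counts, and none of the 8 tested enzymes passed the test. Acly, the ATP-citrate lyase that makes cytosolic acetyl-CoA (chromosome 11, 100476353 to 100528000, minus strand), had 979, 1058 and 1110.5 CPM in the control and 1168, 1152 and 1096 CPM in the knockout. Only knockout 3 fell within the control range, and the log2 fold change was 0.12 (SE 0.12, unadjusted p = 0.355 in edgeR). Acaca, the acetyl-CoA carboxylase, had 206 to 274 CPM in the control and 208 to 255 CPM in the knockout (-0.12, SE 0.15). Fasn, the fatty acid synthase, had 46.6, 53.4 and 48.9 CPM in the control and 53.6, 39.5 and 47.2 CPM in the knockout (-0.09, SE 0.15). Acss2, which makes acetyl-CoA from acetate, had 4.53 to 8.44 and 4.66 to 7.18 CPM (-0.23, SE 0.33). The desaturase Scd2 stood at 10.5 to 12.6 and 7.87 to 12.5 CPM (-0.15, SE 0.24), and the polyunsaturated fatty acid desaturase Fads1 at 2.32 to 4.001 and 2.00 to 2.49 CPM (-0.36, SE 0.44). Elovl6, the elongase of palmitate, had 0.927, 1.51 and 3.84 CPM in the control and 2.02, 2.34 and 1.88 CPM in the knockout (-0.01, SE 0.59). Fads2 had 1 count in knockout 1, 2 counts in knockout 2 and 0 in the other libraries, where a count of 0 allows 0.154 to 0.174 CPM; it was too low to test.

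Scd1, the stearoyl-CoA desaturase, varied most of all members: 3.81, 30.4 and 5.53 CPM in the control and 23.8, 5.37 and 9.64 CPM in the knockout, a 7.98-fold span. The high libraries were control 2 and knockout 1, 1 in each genotype, and the log2 fold change was -0.03 (SE 0.98). Those libraries were also the richest in B cell transcripts. The summed CPM of the 14 B cell markers was 112, 589 and 85.3 in the floxed controls and 379, 113 and 174 in the knockouts, with all 14 markers detected in each library. The part of B cell RNA in the Scd1 values was not tested. Scd2, the near paralog on the same chromosome, did not follow this order.

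**Figure D2:**
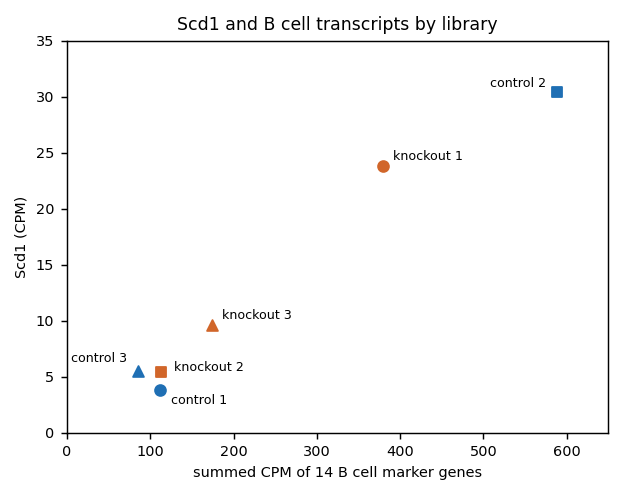
Scd1 in CPM (y axis) against the summed CPM of 14 B cell marker genes (x axis), 1 point per library; blue marks floxed control and orange knockout, and shapes mark replicate numbers. Control 2 and knockout 1 stand apart on both axes, at 30.4 and 23.8 CPM of Scd1.

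Levels of different genes were compared per gene length, as the deposited FPKM (mean ± SD over all 6 libraries). Acly stood far above the rest at 232 ± 12.9 FPKM, followed by Insig1 at 51.6 ± 10.6 FPKM. Ebp (18.5 ± 2.67 FPKM), Srebf2 (18.1 ± 2.51 FPKM) and Acaca (15.7 ± 2.07 FPKM) came next, and neighbours in this order lay within an SD or so of each other. Sqle, a rate-controlling step of the sterol arm, stood at 0.970 ± 0.303 FPKM, and Lss, Hsd17b7, Acss2, Fads1, Tm7sf2 and Elovl6 were likewise under 1 FPKM. The median member of the sterol arm had 2.77 FPKM, that of the fatty acid arm 2.29 FPKM and that of the regulators 8.85 FPKM. Within the fatty acid arm, Acly and Acaca together held 92.2% to 95.4% of the counts in every library.

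**Figure D3:**
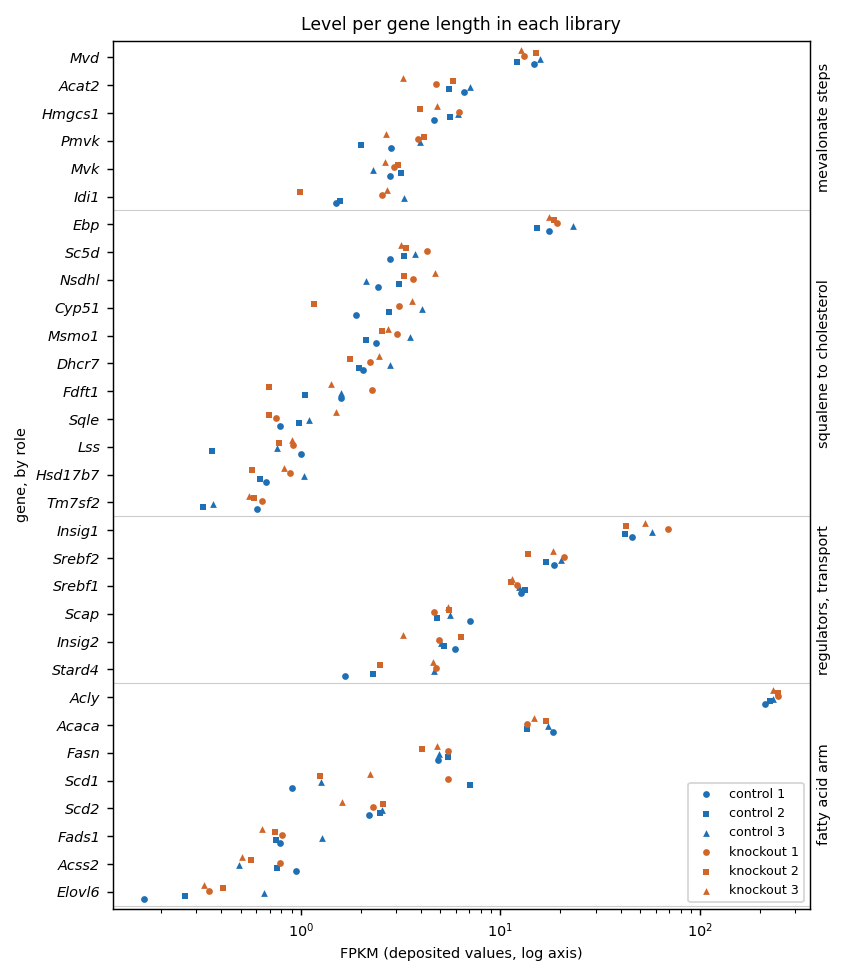
Deposited FPKM of 31 members (x axis, log scale) in each library, by role on the y axis; blue marks floxed control, orange knockout, and shapes replicate numbers. Fads2, listed at 0 in most libraries, is left out. Acly lies between 213 and 246 FPKM in all libraries, and blue and orange points mix for nearly every gene.

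The arms were compared by the mean of their members' log2 CPM, each centred on its own mean over the 6 libraries. The sterol arm stood at -0.10, -0.21 and 0.23 in control libraries 1, 2 and 3, and at 0.19, -0.21 and 0.10 in knockout libraries 1, 2 and 3. The fatty acid arm stood at -0.24, 0.18 and 0.11, and at 0.21, -0.11 and -0.16. For both arms the groups overlapped, and the gap between group means, 0.06 for the sterol arm and -0.03 for the fatty acid arm (knockout minus control), was smaller than the SD within groups, 0.22 and 0.21. The median log2 fold change was 0.04 over the 17 sterol enzymes, with 9 higher and 8 lower. Over the 8 tested fatty acid enzymes it was -0.10, with 1 higher and 7 lower. Sterol minus fatty acid scores were 0.14, -0.40 and 0.12 in the control and -0.02, -0.10 and 0.26 in the knockout, so the contrast between arms overlapped as well. Without Scd1 the fatty acid arm stood at -0.09, -0.03 and 0.24 in the control and at 0.06, -0.0016 and -0.18 in the knockout.

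For both arm scores, libraries of the same genotype lay farther apart than the genotype means did, and several sterol genes were highest in the same libraries. Stard4, Cyp51, Idi1, Insig1, Msmo1, Hsd17b7, Dhcr7 and Srebf2 each had their 3 highest values in control 3, knockout 1 and knockout 3. These genes were singled out after their values were seen, and no test was made of the pattern. Control 3 was the highest library for 9 of the 17 sterol enzymes, or 52.9%, against 14.6% of all genes tested, and knockout 2 was the lowest for 7 of them, or 41.2%, against 14.7%. Control 2 was the lowest for 6, or 35.3%, against 18.2%, and control 3 itself was the lowest for 2, Mvk and Nsdhl. Among fatty acid enzymes, control 3 was the highest for 3 of 8, or 37.5%, also above the 14.6% of all genes. Knockout 2 was the lowest for 1 of 8, or 12.5%, against 14.7%, and control 1 for 3 of 8, or 37.5%, against 19.2%.

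The LXR target genes Abca1, Abcg1 and Mylip, ran the other way across the same libraries, and other LXR targets did not. Abca1, the main exporter of cholesterol to apolipoproteins, had 205, 178 and 105 CPM in the control and 116, 193 and 100.4 CPM in the knockout. Abcg1, an exporter to lipoprotein particles, had 42.8, 38.0 and 33.7 CPM in the control and 28.4, 45.6 and 22.7 CPM in the knockout. Mylip, an LXR-induced ubiquitin ligase, had 168, 121 and 117 CPM in the control and 97.8, 204 and 115 CPM in the knockout. For each of them control 1, control 2 and knockout 2 were the 3 highest libraries; Abca1 and Mylip were chosen after their values were seen. Of other genes known as LXR targets, Lpcat3 was highest in control 3 and lowest in control 1, Apoe was second lowest in knockout 2, Srebf1 was lowest in knockout 2, and Scd1 was high in control 2 and knockout 1. The mean centred log2 CPM of 14 cell cycle genes was likewise above 0 in control 3, knockout 1 and knockout 3: it was -0.71, -0.15 and 0.21 in the control and 0.32, -0.26 and 0.59 in the knockout, and their summed level was 516 to 599 CPM in the control and 600 to 802 CPM in the knockout, with none at 0 in any library. All 14 also had higher values in the knockout (median log2 fold change 0.38, 2 with an unadjusted p under 0.05, 0 passing edgeR), where 48.8% of all genes were higher. Their part in the pattern was not tested.

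**Figure D4:**
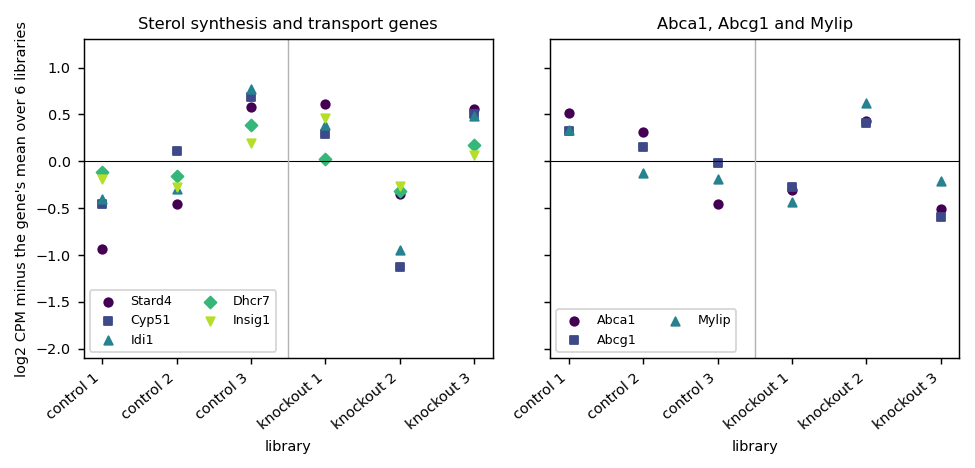
Log2 CPM of each gene minus its mean over the 6 libraries (y axis) by library (x axis; the vertical line divides floxed control from knockout), for sterol synthesis and transport genes on the left and Abca1, Abcg1 and Mylip on the right. The left-hand genes, Stard4, Cyp51, Idi1, Dhcr7 and Insig1, lie above 0 in control 3, knockout 1 and knockout 3, where the right-hand genes lie below it. The left-hand genes, Abca1 and Mylip were chosen after their values were seen, so the contrast is not a test. Acat2, Mvk and Nsdhl, which are not shown, did not have the left-hand pattern.

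Promoter windows were read for letters that SREBP and its partner factors are known to bind. They were not limited to the genes singled out above, but did not cover the whole set. RefSeq windows (GRCm38.p6, 250 bases before to 50 after a start) were read for 26 of the 33 genes, with 34 windows. The 26 were 15 sterol enzymes, 6 fatty acid enzymes and 5 regulators. Stard4, singled out above, was not among them. Shares of the set below refer to these 34 windows only. The sterol regulatory element letters TCACNCCAC, searched on both strands, were found in 1 of the 34 windows, that of Hmgcs1, and in 1.24% of all 32851 windows. Its inner letters, CACNCCAC, which every TCACNCCAC match also holds, were found in the windows of Acat2, Hmgcs1 and Insig1, 8.82% of the windows of the set and 6.24% of all. CCAAT, the box of the partner factor NF-Y, searched on both strands, was found for 14 of 15 sterol enzymes and 3 of 6 fatty acid enzymes. Of the windows of the set, 64.7% held it, against 37.4% of all windows. The GC box letters GGGCGG were found in 76.5% of the set and 35.7% of all, and the E-box letters CACGTG in 17.6% and 7.15%. A higher share in the set was thus not particular to CCAAT. All windows were counted whether or not the gene is expressed. These matches are descriptions of letters, not of binding. The windows of Hmgcs1, Cyp51, Insig1 and Fasn are shown 5′ to 3′ on the gene's strand. Hmgcs1 holds the full element, Cyp51 and Insig1 shared their 3 highest libraries, and Fasn is an example of the fatty acid arm. Capitals mark CCAAT or its complement ATTGG and the sterol element letters; in Fasn, a CCAAT and an ATTGG overlap.
Hmgcs1 (chr13:119690101-119690400, plus strand): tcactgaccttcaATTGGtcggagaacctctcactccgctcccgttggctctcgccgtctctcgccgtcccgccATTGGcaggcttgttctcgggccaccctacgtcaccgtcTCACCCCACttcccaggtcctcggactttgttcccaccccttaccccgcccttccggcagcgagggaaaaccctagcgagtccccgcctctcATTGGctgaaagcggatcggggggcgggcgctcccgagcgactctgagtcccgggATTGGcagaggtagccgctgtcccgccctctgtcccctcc
Cyp51 (chr5:4104648-4104947, minus strand): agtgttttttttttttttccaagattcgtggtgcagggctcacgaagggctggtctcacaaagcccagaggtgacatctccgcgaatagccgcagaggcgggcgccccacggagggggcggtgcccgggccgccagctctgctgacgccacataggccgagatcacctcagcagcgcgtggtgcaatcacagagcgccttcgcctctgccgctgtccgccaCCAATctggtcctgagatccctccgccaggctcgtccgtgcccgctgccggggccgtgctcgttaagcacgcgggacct
Insig1 (chr5:28071162-28071461, plus strand): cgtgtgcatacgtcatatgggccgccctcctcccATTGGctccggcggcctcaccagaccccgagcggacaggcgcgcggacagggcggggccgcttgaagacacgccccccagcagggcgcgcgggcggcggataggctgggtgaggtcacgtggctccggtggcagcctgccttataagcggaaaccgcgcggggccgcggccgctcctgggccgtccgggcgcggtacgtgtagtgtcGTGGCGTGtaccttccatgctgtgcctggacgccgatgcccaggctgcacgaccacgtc
Fasn (chr11:120824498-120824797, minus strand): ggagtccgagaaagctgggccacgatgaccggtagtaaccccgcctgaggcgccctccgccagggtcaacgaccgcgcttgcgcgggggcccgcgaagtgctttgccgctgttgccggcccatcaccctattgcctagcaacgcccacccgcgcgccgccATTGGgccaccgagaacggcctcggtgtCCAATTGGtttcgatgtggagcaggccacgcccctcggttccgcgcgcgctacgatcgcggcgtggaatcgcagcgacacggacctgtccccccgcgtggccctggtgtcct

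Hmgcs1 carries the element at position -137 relative to the annotated start, with CCAAT boxes on the opposite strand at -237, -176, -45 and 11. Cyp51 has 1 CCAAT box, at -29, and no match to the element letters in this window. Insig1 has an ATTGG at -216 and the inner letters on the opposite strand at -9.

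Other genes of the same metabolism, from 4 lists of related genes, gave 0 calls as well. Of 9 tested sterol and isoprenoid genes, 6 were higher and 3 were lower in the knockout, and their median difference was 0.17 log2 units. Pdss1, which makes the side chain of ubiquinone, had 3.29, 2.38 and 2.26 CPM in the control and 5.63, 5.44 and 4.60 CPM in the knockout. Its groups did not overlap, and its log2 fold change was 0.98 (SE 0.35, unadjusted p = 0.0175, edgeR adjusted p = 0.997). Acat1, the mitochondrial thiolase, stood at 0.33 (SE 0.19), and Ggps1, which makes geranylgeranyl diphosphate, at -0.29 (SE 0.20). Of 7 genes of SREBP processing and Insig or Scap turnover, 2 were higher and 5 lower, with a median of -0.09; the proteases Mbtps1 and Mbtps2 stood at 0.11 (SE 0.12) and -0.25 (SE 0.16), and the ubiquitin ligase Rnf139 at -0.11 (SE 0.19).

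Of 20 further fatty acid genes, 10 were higher and 10 lower, with a median of 0.01. Mid1ip1, which helps acetyl-CoA carboxylase to polymerise, had 157, 133 and 117 CPM in the control and 72.3, 119 and 111 CPM in the knockout, a log2 fold change of -0.43 (SE 0.19, unadjusted p = 0.0467, edgeR adjusted p = 0.997). Knockout 2 fell within the control range. Hsd17b12, an enzyme of very long chain elongation, had 51.5, 50.2 and 52.9 CPM in the control and 60.1, 62.2 and 60.4 CPM in the knockout. Its groups did not overlap, and the difference of 0.24 (SE 0.12) did not pass (adjusted p = 0.997 in edgeR). Me1, the malic enzyme that supplies NADPH, stood at 0.57 (SE 0.34). Of 12 tested genes of sterol export, storage and sensing, 4 were higher and 8 lower, with a median of -0.08; Apoe stood at -0.91 (SE 0.39; -0.48 without control 1), the cholesterol esterifying enzyme Soat1 at -0.18 (SE 0.15) and Abcg1 at -0.24 (SE 0.23).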

How the data were processed

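The 6 polyA RNA libraries, 3 of each genotype and all from sorted cells of infected mice, were grouped by their titles. The submitters' processing notes name HISAT2 2.0.5 for alignment (GRCm38) and featureCounts 1.5.0-p3 for counting; the annotation release and the settings for strand and multi-mapping reads are unknown here. Raw counts per gene were deposited by the authors and were the values tested. The deposited FPKM were computed from gene length and count, per the design text, and were used only to compare levels between genes. The deposited size-factor scaled signal was not used, and the log2 fold changes and p-values of the authors are named as theirs.

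Genes passing edgeR's default filter (12786) were scaled by TMM and fitted in edgeR 4.0.16 (R 4.3.3) by quasi-likelihood with a robust prior and genotype as the only term, with Benjamini-Hochberg adjustment at 0.05. SEs were derived from the F statistic and 95% intervals from the t distribution. Scores use log2 CPM with a prior count of 2. On simulated data for this comparison (12786 genes), 74% of 2-fold and 94% of 4-fold changes were recovered among genes of average log2 CPM above 2, with 17 false calls. Many genes were changed at once there, which eases the adjusted p threshold. These shares therefore do not give the power for a lone changed member in data with 0 calls. Libraries differed by more than sampling noise (chi-square per gene of at least 23.5). A floor of 3 counts (0.154 to 0.190 CPM) covers counting error only.

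Members, lists and tests were chosen with earlier results of these data known. By rule, every member found is named, with Tmem206 and the 3 genes of smallest p in each of 4 related lists; Abca1 and Mylip were added after their values were seen, and 1 further gene is not reported here. Alternatives were other normalisations, filters and priors, DESeq2 1.42.0, limma-voom (limma 3.58.1), a replicate block, an adjusted p threshold of 0.1, members of at least 10 CPM, and each library left out. Columns of other samples numbered 0.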

Additional observations from a re-analysis of the deposited data

How the results depend on the processing

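No member was called under any alternative (smallest adjusted p 0.426), whether the tool, scaling, filter, prior or threshold was changed or a library left out. The count of all genes called was 0 in the main edgeR fit, 38 without a filter on low counts and 22 with DESeq2; leaving out 1 library gave 0 to 18, with 18 without control 3, 5 without knockout 1 and 2 without control 1. The replicate numbers did not pair the libraries (correlations of -0.05, -0.06 and 0.08 between same-numbered deviations), so the replicate block is given only as an alternative. With the replicate block, the log2 fold change turned sign for Fdft1 (-0.061), Sqle (-0.027), Ebp (0.0091), Elovl6 (0.23), Scd1 (0.40) and Mylip (-0.017). With limma-voom it turned for Fdft1 (-0.042), Sqle (-0.11), Hsd17b7 (0.017), Ebp (0.068), Elovl6 (0.32) and Scd1 (0.064); the cause was not tested. Leaving out 1 library at a time changed the sign for 19 of the 31 members. Their log2 fold changes ran from -0.31 to 0.022 for Hmgcs1, -0.035 to 0.18 for Mvk, -0.16 to 0.042 for Mvd, -0.26 to 0.47 for Idi1, -0.41 to 0.40 for Fdft1, -0.40 to 0.24 for Sqle, -0.014 to 0.61 for Lss, -0.43 to 0.22 for Cyp51, -0.082 to 0.33 for Msmo1, -0.16 to 0.25 for Hsd17b7, -0.14 to 0.19 for Ebp, -0.19 to 0.12 for Dhcr7, -0.20 to 0.10 for Srebf2, -0.016 to 0.35 for Insig1, -0.39 to 0.065 for Insig2, -0.19 to 0.022 for Fasn, -0.36 to 0.77 for Elovl6, -0.81 to 1.47 for Scd1 and -0.29 to 0.021 for Scd2, and likewise from -0.20 to 0.022 for Rnf139 and -0.35 to 0.24 for Mylip. Without a change of sign, values with 1 library left out still ranged from 0.18 to 1.02 for Stard4, 0.31 to 0.77 for Tm7sf2, 0.072 to 0.58 for Pmvk, 0.00099 to 0.27 for Sc5d, 0.072 to 0.16 for Acly, -0.66 to -0.28 for Acat2, -0.50 to -0.054 for Fads1, -0.45 to -0.019 for Acss2, -0.26 to -0.0073 for Scap, -0.24 to -0.049 for Acaca and -1.13 to -0.48 for Apoe. The median of the sterol arm ran from -0.11 to 0.20 and that of the fatty acid arm from -0.20 to -0.03. Among members of at least 10 CPM the medians were -0.07 and -0.09, so the sign of the sterol median rests on lower members. The fatty acid score without Scd1 was added after the data were seen. Fads2, with 3 counts in all, fell below the filter and was not tested. The widest interval, that of Scd1, goes with its 7.98-fold span over libraries.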
